A study of Homo sapiens with 15 samples.

Results

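Expression of 34 glycolysis and hypoxia-inducible genes was measured by RNA-seq in AsPC-1 and Capan-1, established human pancreatic ductal adenocarcinoma lines, after siRNA knockdown of a glycosyltransferase. The genes were chosen by symbol, and all 34 were among the 25503 genes of the table. They comprise 17 glycolytic enzymes, 6 regulators and transporters of glycolysis, 10 other hypoxia targets and HIF1A. The AsPC-1 groups were siNC, a control siRNA, and knockdowns of B4GALT5 (siB4GALT5) and of B3GNT3 (siB3GNT3), and the Capan-1 groups were siNC and siB3GNT3. Each of the 5 groups had 3 libraries, 15 in all. B4GALT5 is a galactosyltransferase that makes lactosylceramide, and B3GNT3 adds N-acetylglucosamine to O-glycans and to N-acetyllactosamine chains. The series title ties both enzymes to MHC class I on tumour cells, and nothing in the sources used here gives a question about glycolysis. Some label fields spell the second line Capable-1, and its titles say Capan-1. The time after transfection, the siRNA dose, the oxygen level and the glucose of the medium are not given in the sources used here. The labels do not say that replicates were separate cultures, so p-values measure only the spread between these libraries, which may be technical.

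Glycolysis splits glucose into pyruvate in the cytosol, and lactate dehydrogenase turns pyruvate into lactate. When oxygen is low, the prolyl hydroxylases of the EGLN family no longer mark HIF1A protein for VHL and degradation. HIF1A then pairs with ARNT and activates nearly every enzyme of glycolysis, together with genes for vessel growth, acid handling, mitophagy and collagen modification. HIF1A is set mainly through its protein, which RNA-seq does not measure. Pancreatic ductal adenocarcinoma is known for poor perfusion and for high glycolytic and hypoxia gene expression, whereas cultured cells usually grow in room air.

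Values are FPKM, fragments scaled by transcript length and by the fragments of the library. A gene was called changed where limma, a linear model over all genes with pooled estimates of spread, gave a Benjamini-Hochberg adjusted p under 0.05. Fold changes are differences of log2(FPKM + 1), which understate the change of genes with low values. "Rose" and "fell" are used only for called genes.

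The targets were read first. B4GALT5 fell from 36.7 ± 1.74 FPKM (SD, n = 3) in AsPC-1 siNC to 8.41 ± 0.343 FPKM with siB4GALT5. B3GNT3 spanned 22.5 to 23.8 FPKM in AsPC-1 siNC and was 2.53, 2.504 and 24.2 FPKM in the siB3GNT3 libraries, so the last of these, labelled AsPC-1 siB3GNT3 replicate 3, goes against its label. In Capan-1 it spanned 13.2 to 13.7 FPKM with siNC and 1.32 to 1.84 FPKM with siB3GNT3. Each target was also read in the other knockdown. With siB4GALT5 B3GNT3 was 32.4, 30.8 and 27.9 FPKM, above its AsPC-1 siNC range. B4GALT5 was 33.5 to 36.7 FPKM with siB3GNT3 in AsPC-1, overlapping siNC at 35.5 to 38.7 FPKM. In Capan-1 B4GALT5 was 63.5 to 72.3 FPKM with siB3GNT3, below siNC at 74.2 to 76.4 FPKM. AsPC-1 siB3GNT3 replicate 3 also stood with the controls in the genes studied here. Of the 30 that could be tested, it lay inside the siNC range for 19 and nearer to the siNC mean than both other siB3GNT3 libraries for 25. Its median absolute distance from the siNC mean was 0.03 on the log2 scale, against 0.37 and 0.43 in replicates 1 and 2. Changes of the 34 genes with siB3GNT3 in AsPC-1 are therefore given with and without it, and those of other lists mostly without it, since none of their genes was called as labelled. Relative read depth, read from the steps between low values, ranged from 0.944 to 1.03 of AsPC-1 siNC replicate 1. The ratio was sought only near equal depth, so a large difference of depth could not have been seen. KRT8, KRT18, KRT19 and EPCAM were expressed in every library (23.3 FPKM or more), whereas KRT7 and CDH1 were under 1 FPKM in AsPC-1. Of 12 markers of fibroblasts, leucocytes and endothelium, DCN, COL1A2, PTPRC, CD3E, CDH5 and VWF were under 0.2 FPKM and COL3A1 at most 0.626 FPKM in every library. CD68, a lysosomal protein of macrophages, was 38.8 to 40.6 FPKM in AsPC-1 siNC, 48.4 to 51.4 with siB4GALT5 and 43.0 to 52.2 with siB3GNT3, and 157 to 212 FPKM in Capan-1. Capan-1 also had COL1A1 (46.3 to 53.2 FPKM with siNC, 73.1 to 77.6 with siB3GNT3), CD14 (2.67 to 5.44), PECAM1 (up to 1.63) and PDGFRB (up to 1.99), which were at most 0.463 FPKM in AsPC-1, and the part of these markers in the results was not tested.

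Promoter sequence is shown because hypoxia-inducible factor binds a short motif, ACGTG, and because enzymes and other targets moved apart below. RefSeq promoters (GRCh38.p14, 250 bases before to 50 bases after a start site) matched 30 of the 34 genes, with 58 start sites, leaving SLC2A3, VEGFA, NDRG1 and BNIP3L. ACGTG on either strand was present in 18 of the 30 genes, in 22 of their 58 promoters (37.9%) and in 21.4% of all 35116 promoters of that length. GCGTG on either strand, the other form of the core, was present in 19 of the 30 genes, in 24 of the 58 promoters (41.4%) and in 36.5% of all promoters. The E-box CACGTG, which holds ACGTG on both strands and is also bound by other factors, was present in 8 of the 30 genes, in 8 of the 58 promoters (13.8%) and in 7.26% of all promoters. These are matches of letters and not shown to be binding sites. Windows of 30 bases follow for 5 enzymes that fell with siB4GALT5, for P4HA1 and KDM3A, which rose, and for CA9. CA9 fell with siB4GALT5 and with siB3GNT3 in Capan-1, and rose with siB3GNT3 in AsPC-1 without replicate 3. The windows read 5′ to 3′ on the gene's strand, and capitals mark a core motif or E-box.
LDHA (chr11:18394477-18394506, plus strand): ACGTGggttcccgCACGTccgccggccccc
PGK1 (chrX:78104052-78104081, plus strand): caaacggaagccgCACGTctcactagtacc
ALDOC (chr17:28576907-28576936, minus strand): cccccggaggagtCACGTagctctgcgaca
GAPDH (chr12:6535171-6535200, plus strand): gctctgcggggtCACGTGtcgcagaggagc
ENO1 (chr1:8878742-8878771, minus strand): cggagctgaggggGCGTGccccggaggcgg
P4HA1 (chr10:73096936-73096965, minus strand): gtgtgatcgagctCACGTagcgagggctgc
KDM3A (chr2:86441332-86441361, plus strand): tccgggaggctgtGCGTGtcttgtgagagc
CA9 (chr9:35673897-35673926, plus strand): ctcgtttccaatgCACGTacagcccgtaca
GAPDH holds the E-box, the windows of ENO1 and KDM3A hold GCGTG, and the others hold ACGTG or its reverse complement CACGT.

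Both lines expressed glycolysis strongly with control siRNA, and they differed most in LDHB and BNIP3. The order of levels in AsPC-1 siNC was GAPDH (2869 ± 67.4 FPKM), PKM (1859.8 ± 80.8), LDHA (858 ± 38.3), ENO1 (810.1 ± 20.4) and TPI1 (484 ± 15.6), and LDHA and ENO1 overlapped (mean ± SD, n = 3). In Capan-1 siNC it was GAPDH (2582 ± 101), PKM (1641 ± 33.4), ENO1 (1052 ± 17.6), LDHA (693 ± 12.9) and then HIF1A (454 ± 12.3), with no overlap between neighbours. The 17 enzymes summed to 7209 to 7456 FPKM in AsPC-1 siNC and to 7166 to 7448 FPKM in Capan-1 siNC, so the ranges of the sums overlapped. Of 33 genes tested, 32 differed between the lines with siNC, 21 higher and 11 lower in Capan-1, where 84.9% of the 11656 genes tested were called, 47% higher and 37.9% lower. Over all genes 47.1% lay wholly above and 38.4% wholly below between these groups. ALDOA was the exception among those tested, and SLC2A3, the neuronal-type glucose transporter, was too low to test, at 0.0331 to 1.29 FPKM over all 15 libraries.

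**Figure D1:**
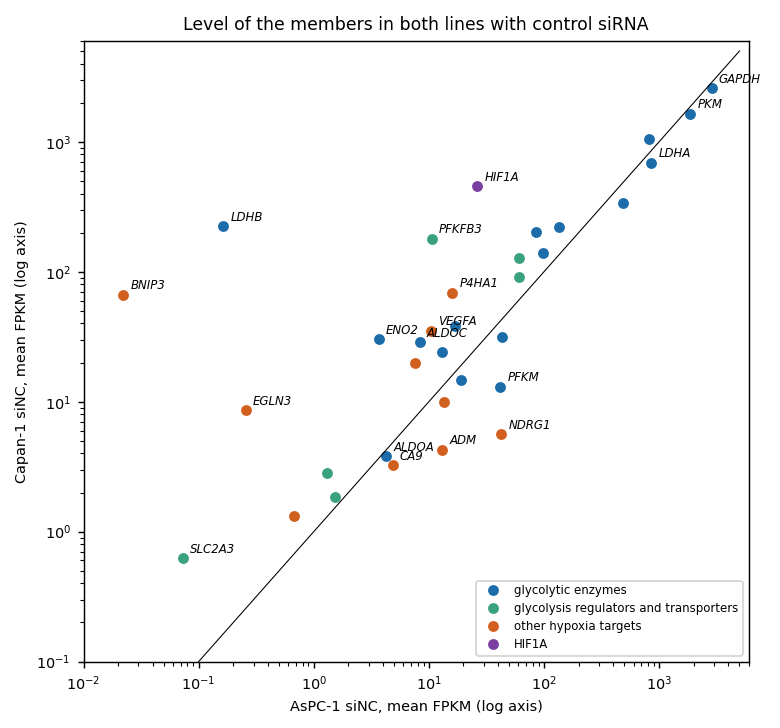
Mean FPKM of the 34 genes with control siRNA, AsPC-1 on the horizontal and Capan-1 on the vertical log axis, coloured by subset, with the line of equal level. Most enzymes lie near the line, while LDHB, BNIP3, EGLN3, HIF1A and PFKFB3 lie far above it and NDRG1 and ADM below it.

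The largest gaps between the lines were in LDHB and BNIP3. LDHB, the lactate dehydrogenase subunit of oxidative tissues, was 0.0399 to 0.363 FPKM over the 9 AsPC-1 libraries and 179 to 235 FPKM over the 6 Capan-1 libraries. LDHB thus made up 23.7% to 31.1% of LDHA plus LDHB in Capan-1 and at most 0.0777% in AsPC-1. BNIP3, a mitophagy receptor, was listed at 0 in 8 of 9 AsPC-1 libraries and at 45.4 to 72.5 FPKM in Capan-1. It has 39 named pseudogenes in GENCODE, so its level is less certain than most. EGLN3, the oxygen-sensing hydroxylase that is itself a hypoxia target, was 0.262, 0.256 and 0.252 FPKM in AsPC-1 siNC, 0.0950 to 0.414 FPKM in its knockdowns, and 8.60 ± 0.226 FPKM in Capan-1 siNC. These 3 genes did not pass the filter in the AsPC-1 comparisons.

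HIF1A (chromosome 14, 61695513 to 61748259, plus strand) was 26.3 ± 0.740 FPKM in AsPC-1 siNC and 454 ± 12.3 FPKM in Capan-1 siNC, a ratio of 17.2 (log2 fold change 4.06, SE 0.04, adjusted p = 2.52e-13). PFKFB3, which makes fructose 2,6-bisphosphate, the activator of phosphofructokinase, had a ratio of 17.03 (log2 fold change 3.97, SE 0.06, adjusted p = 4.84e-12). P4HA1, a subunit of collagen prolyl hydroxylase, had a ratio of 4.32, VEGFA, the vessel growth factor, of 3.40, and ENO2, the neuronal enolase, of 8.23. NDRG1, a stress-response and differentiation gene, went the other way, from 42.6 ± 0.586 FPKM in AsPC-1 to 5.599 ± 0.336 FPKM in Capan-1 (log2 fold change -2.72, SE 0.05, adjusted p = 1.95e-11). PFKM, the muscle phosphofructokinase (-1.61, SE 0.05, adjusted p = 5.73e-10), and ADM, the vasodilator adrenomedullin (-1.41, SE 0.06, adjusted p = 1.3e-08), were also lower in Capan-1. With rescaling to a common sum the all-gene median was 0.23 in place of 0.09, which turned GAPDH from -0.15 to 0.01 (adjusted p = 0.703) and ended the calls of GAPDH, PKM and CA9.

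With siB4GALT5 in AsPC-1 the glycolytic enzymes fell while most other hypoxia targets rose. Of 16 enzymes tested 14 fell and PFKL rose, with a median log2 fold change of -0.39 against 0.06 over all genes. Of 8 other hypoxia targets tested 5 rose (VEGFA, NDRG1, BNIP3L, P4HA1 and KDM3A) and CA9 fell, with a median of 0.37. PFKFB4 and SLC16A3 fell among 5 regulators and transporters (median -0.08), and HIF1A mRNA fell as well. In bulk RNA, fewer cells that express a gene and less of its RNA per cell cannot be told apart. In all, 24 of 30 genes tested were called, 6 up and 18 down. Over all 10601 genes 56.5% were called, 34.1% up and 22.3% down, so a call as such was common and the downward share of the enzymes was above that of all genes. With median-ratio scaling the 5938 genes called split into 3013 up and 2925 down, and with rescaling to a common sum into 4408 up and 1779 down, against 3617 up and 2369 down as deposited. The 34 genes gave 6 up and 18 down with the first and 8 up and 18 down with the second, where ADM and ANKRD37 were added to those that rose. A fit with all 9 AsPC-1 libraries, which takes in the spread of the siB3GNT3 group, called 16 of the 30. Over all genes this fit called 4239 of 10804, against 5986 of 10601 with the 6 libraries compared. It ended the calls of HK1, HK2, PFKL, PFKM, ALDOA, PGK1, PFKFB4 and HIF1A (adjusted p 0.0514 to 0.203). All 3 siB4GALT5 libraries were above all 3 controls for 7 of the 30 genes and below them for 18, as they were for 38.5% and 25.8% of all genes.

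With siB3GNT3 in AsPC-1 the libraries as labelled gave no call, and with replicates 1 and 2 alone most enzymes fell and 5 other hypoxia targets rose. As labelled, limma called 0 of 30 genes studied and 0 of all 10504 (0%), and 9 and 1898 of them had an unadjusted p under 0.05. Here 3 of the 30 had every knockdown library below every control (PFKM, ALDOC and PFKFB4), as did 7.91% of all genes, and 0 had every one above (10.9%). With replicates 1 and 2 of that group only, 24 of 30 were called, 6 up and 18 down, where 62.6% of 10430 genes were called, 37% up and 25.7% down. Then 6 had both libraries above and 18 both below every control, as did 44.3% and 31.4% of all genes. Of 16 enzymes 13 then fell and PFKL rose (median -0.44, against 0.07 over all genes). Of 8 other hypoxia targets VEGFA, CA9, BNIP3L, P4HA1 and KDM3A rose and NDRG1 fell (median 0.32), and PFKFB4, SLC2A1, SLC16A3 and HIF1A fell. These p-values describe the kept libraries, since the left-out library was singled out by its target. The siB4GALT5 and siB3GNT3 comparisons share the same 3 siNC libraries.

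In Capan-1 with siB3GNT3 part of the enzymes fell and 4 other hypoxia targets rose. Of 33 genes tested 14 were called, 4 up (VEGFA, ADM, NDRG1 and EGLN3) and 10 down, where 32.9% of 11493 genes were called, 18.7% up and 14.2% down. The groups did not overlap for 16 of them, 4 above the controls and 12 below, where 28% and 22.1% of all genes lay above and below. HK1, PGK1, ENO1, PKM and LDHA fell among 17 enzymes (median -0.26, against 0.02 over all genes), and PFKFB3, PDK1 and SLC2A1 fell among 5 regulators and transporters (median -0.30). The other hypoxia targets split, with CA9 and ANKRD37 falling, and had a median of -0.05. HIF1A did not pass the test (-0.02, SE 0.10, adjusted p = 0.915). Replicate 3 of this group lay nearer to the siNC mean than both other siB3GNT3 libraries for 23 of the 33 genes, and that share over all genes was not computed. Its B3GNT3 was 1.84 FPKM, the highest of the group (1.32, 1.67 and 1.84 FPKM) but far below siNC. Without replicate 3, 25 of 33 genes were called, 4 up and 21 down, with 13 of 17 enzymes falling, where 50.4% of 11338 genes were called, 26.5% up and 23.9% down. Then 5 lay wholly above and 24 wholly below the controls, against 36% and 32.4% of all genes. With all 6 libraries and no filter on low values 6 of 34 were called. Over all genes 2645 of 22473 were then called, against 3786 of 11493 with the filter. HK1, ENO1, PKM, PDK1, CA9, ANKRD37, NDRG1 and EGLN3 lost their calls without the filter.

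**Figure D2:**
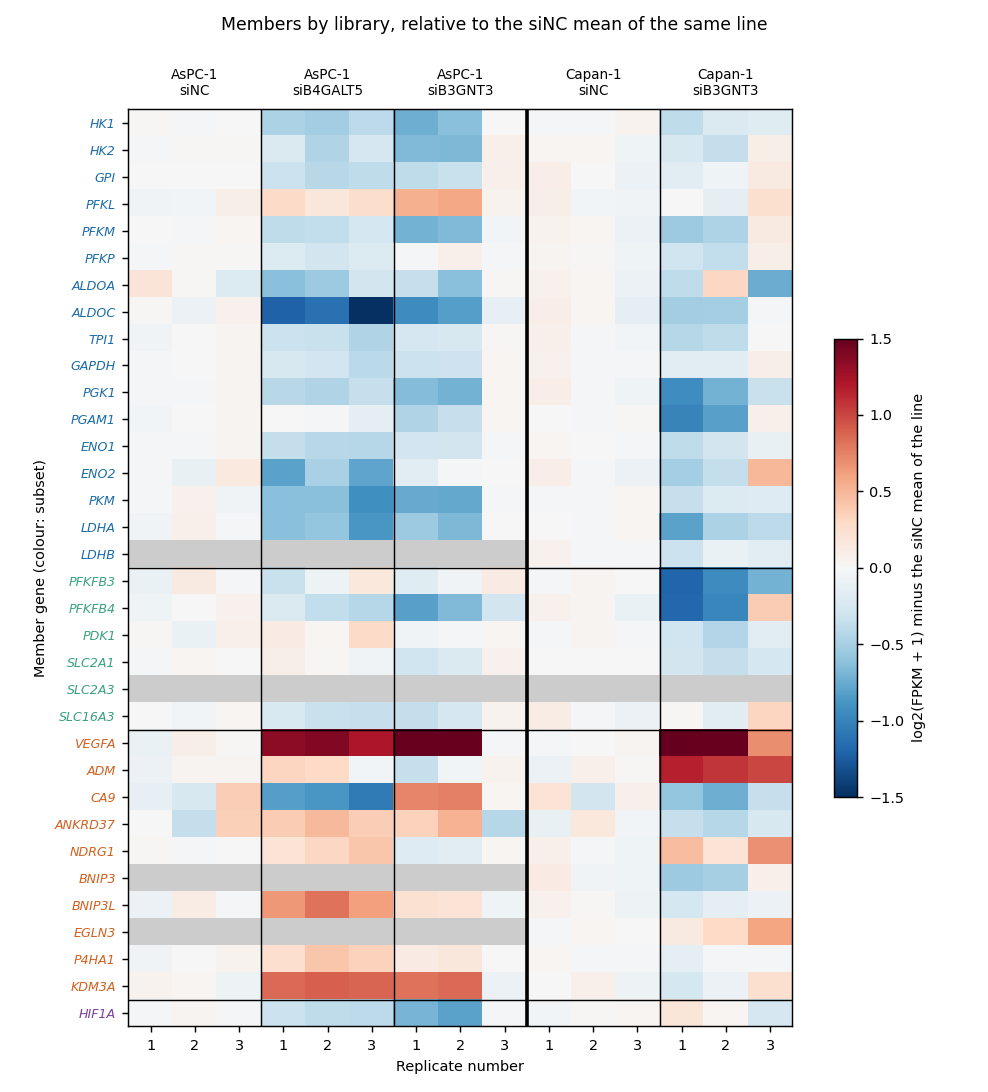
Each cell is log2(FPKM + 1) of a gene in a library minus the siNC mean of the same line, for 34 genes (rows, coloured by subset) and 15 libraries (columns); colours saturate at 1.5 either way, and grey marks genes with fewer than 3 libraries of the line at 1 FPKM. Most enzyme rows are blue with siB4GALT5 and in siB3GNT3 replicates 1 and 2 of AsPC-1, VEGFA is red in every knockdown group, and AsPC-1 siB3GNT3 replicate 3 is near white.

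The enzymes are taken in the order of the pathway. Glucose enters through SLC2A1, the basal glucose transporter. In AsPC-1 SLC2A1 was 60.6, 62.4 and 60.8 FPKM with siNC, 65.0, 62.2 and 59.2 with siB4GALT5, and 49.7, 52.5 and 64.3 with siB3GNT3. In Capan-1 it was 127, 128 and 126 FPKM with siNC and 105, 99.4 and 106 with siB3GNT3. The siB4GALT5 libraries overlapped the controls, whereas siB3GNT3 was lower in all 3 Capan-1 libraries and in replicates 1 and 2 of AsPC-1. SLC2A1 fell in Capan-1 (-0.30, SE 0.06, adjusted p = 0.00603) and in AsPC-1 without replicate 3 (-0.26, SE 0.04, adjusted p = 0.000808; as labelled -0.15, adjusted p = 0.344), and with siB4GALT5 its change was 0.02 (SE 0.05, adjusted p = 0.761).

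Hexokinases trap glucose as glucose 6-phosphate. In AsPC-1 the mitochondria-bound HK1 was 17.03, 16.4 and 16.8 FPKM with siNC, 11.8, 11.4 and 12.6 with siB4GALT5, and 9.67, 10.5 and 16.7 with siB3GNT3. HK1 in Capan-1 was 37.5, 38.0 and 39.7 FPKM with siNC and 29.3, 32.8 and 33.8 with siB3GNT3. Every knockdown library except AsPC-1 siB3GNT3 replicate 3 was below the controls of its line. HK2, the inducible hexokinase, was 18.6, 19.2 and 19.2 FPKM in AsPC-1 with siNC, 16.2, 13.7 and 15.8 with siB4GALT5, and 11.6, 11.6 and 20.1 with siB3GNT3. Its Capan-1 values were 14.9, 15.03 and 14.0 FPKM against 12.3, 11.2 and 15.6, and overlapped (-0.17, SE 0.11, adjusted p = 0.265). HK2 fell there without siB3GNT3 replicate 3 (-0.30, adjusted p = 0.00478). HK1 fell by 0.46 (SE 0.06, adjusted p = 0.000368) and HK2 by 0.30 (SE 0.07, adjusted p = 0.00778) with siB4GALT5, and by 0.68 and 0.67 with siB3GNT3 in AsPC-1 without replicate 3 (adjusted p = 9.92e-06 and 5.76e-06; as labelled 0.251 for each). In Capan-1 HK1 fell by 0.26 (SE 0.07, adjusted p = 0.0271). That call ended without any siNC library and without siB3GNT3 replicate 1 or 2, with adjusted p up to 0.112.

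HKDC1, a further hexokinase from the list of other isoforms, was the most abundant hexokinase mRNA in AsPC-1, where it made up 70.1% to 70.5% of HK1 plus HK2 plus HKDC1 with siNC. It was 84.3, 85.1 and 84.4 FPKM with siNC, 50.3, 52.3 and 57.2 with siB4GALT5, and 88.2, 89.2 and 79.1 with siB3GNT3. Its Capan-1 values were 47.2, 47.0 and 44.9 FPKM with siNC and 107, 89.3 and 70.3 with siB3GNT3. HKDC1 thus went down in all 3 siB4GALT5 libraries and up in all 3 Capan-1 siB3GNT3 libraries. It fell with siB4GALT5 (-0.66, SE 0.06, adjusted p = 5.1e-05) and rose with siB3GNT3 in Capan-1 (0.91, SE 0.13, adjusted p = 0.00222), where HK1 fell, and its change with siB3GNT3 in AsPC-1 was 0.01 (adjusted p = 0.901; 0.07, adjusted p = 0.147, without replicate 3). HKDC1 made up 45.5% to 47.4% of the 3 hexokinases in Capan-1 siNC and 58.8% to 72.1% with siB3GNT3.

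GPI, the isomerase that forms fructose 6-phosphate, was 43.7, 43.7 and 43.5 FPKM in AsPC-1 with siNC, 34.7, 32.3 and 33.1 with siB4GALT5, and 33.2, 34.4 and 46.1 with siB3GNT3. Capan-1 libraries gave 33.9, 31.3 and 29.6 FPKM with siNC and 28.1, 30.0 and 34.7 with siB3GNT3. It was lower in every siB4GALT5 library and overlapped in Capan-1. GPI fell by 0.38 with siB4GALT5 (SE 0.05, adjusted p = 0.00043) and by 0.36 with siB3GNT3 in AsPC-1 without replicate 3 (SE 0.04, adjusted p = 9.4e-05; as labelled -0.21, adjusted p = 0.292).

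The 3 phosphofructokinase genes, whose enzyme commits sugar to glycolysis, did not move together. PFKL, the liver form, was 12.6, 12.7 and 14.0 FPKM in AsPC-1 with siNC, 16.3, 14.9 and 15.9 with siB4GALT5, and 19.5, 20.1 and 13.6 with siB3GNT3. PFKM was 41.5, 40.8 and 42.5 FPKM with siNC, 31.8, 32.0 and 34.4 with siB4GALT5, and 25.0, 25.8 and 40.5 with siB3GNT3. PFKP, the platelet form and the most abundant, was 96.9, 100.2 and 99.96 FPKM with siNC, 85.7, 82.0 and 85.8 with siB4GALT5, and 98.1, 105 and 98.0 with siB3GNT3. PFKL was thus above its controls where PFKM was below them, in all siB4GALT5 libraries and in siB3GNT3 replicates 1 and 2. PFKL rose by 0.24 with siB4GALT5 (SE 0.07, adjusted p = 0.014) and by 0.56 with siB3GNT3 without replicate 3 (SE 0.06, adjusted p = 4.67e-05; as labelled 0.39, adjusted p = 0.251). The first call also ended without siNC replicate 1 or 2 or siB4GALT5 replicate 1, with adjusted p up to 0.173 over the alternatives. PFKM fell by 0.34 (SE 0.05, adjusted p = 0.00106) and by 0.69 (SE 0.05, adjusted p = 2.32e-06; as labelled -0.47, adjusted p = 0.251). PFKP fell with siB4GALT5 (-0.23, SE 0.05, adjusted p = 0.00351; -0.14 with rescaling to a common sum) and was not called with siB3GNT3 in AsPC-1 (0.02, adjusted p = 0.848; 0.03, adjusted p = 0.522, without replicate 3). In Capan-1 PFKL was 25.8, 23.5 and 23.2 FPKM with siNC and 24.2, 21.9 and 28.7 with siB3GNT3. PFKM was 13.5, 13.3 and 12.2 FPKM there with siNC and 8.58, 9.14 and 14.4 with siB3GNT3, and PFKP 145, 143 and 134 against 114, 109 and 150.0. Replicates 1 and 2 were below the controls for PFKM and PFKP, and replicate 3 was above them for all 3 genes. None of the 3 was called, and without siB3GNT3 replicate 3 PFKM (-0.51, adjusted p = 0.000305) and PFKP (-0.33, adjusted p = 0.00102) fell.

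Aldolase splits the sugar into trioses. ALDOC (chromosome 17, 28573115 to 28577264, minus strand), the brain-type form, was 8.45, 7.79 and 8.76 FPKM in AsPC-1 with siNC, 3.01, 3.29 and 1.95 with siB4GALT5, and 3.85, 4.26 and 7.54 with siB3GNT3. The Capan-1 levels were 30.6, 29.2 and 25.9 FPKM with siNC and 19.6, 19.7 and 28.1 with siB3GNT3. All siB4GALT5 libraries were far below the controls, at a mean ratio of 0.330, and Capan-1 siB3GNT3 replicate 3 stayed inside the control range. ALDOC had the most negative change of the 30 genes with siB4GALT5 (-1.33, SE 0.13, adjusted p = 0.000102) and fell with siB3GNT3 without replicate 3 (-0.88, SE 0.07, adjusted p = 9.39e-06; as labelled -0.63, adjusted p = 0.251). In Capan-1 it was not called (-0.35, SE 0.14, adjusted p = 0.0817) except without replicate 3 (-0.51, adjusted p = 0.000403). ALDOA, the ubiquitous form, was 4.95, 4.29 and 3.53 FPKM in AsPC-1 with siNC, 2.38, 2.58 and 3.33 with siB4GALT5, and 3.11, 2.37 and 4.29 with siB3GNT3. Capan-1 had 4.02, 3.91 and 3.51 FPKM with siNC and 2.69, 4.94 and 1.86 with siB3GNT3, with no call (-0.27, SE 0.23, adjusted p = 0.381). The siB4GALT5 libraries were below the controls, and the Capan-1 groups overlapped. ALDOA fell with siB4GALT5 (-0.48, SE 0.13, adjusted p = 0.0124). It fell with siB3GNT3 in AsPC-1 without replicate 3 (-0.49, SE 0.12, adjusted p = 0.00753; as labelled -0.32, adjusted p = 0.285). Its exons share 1657 of 3916 bases with AC093512.2 on the same strand in GENCODE, so its level and these calls are uncertain. LOC112694756, a RefSeq gene that overlaps the ALDOA locus, was 0.412 to 1.42 FPKM over all libraries. Where reads of ALDOA may have been assigned was not tested.

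The triose steps carry the most abundant mRNA of the pathway. TPI1, which interconverts the trioses, was 468, 485 and 499 FPKM in AsPC-1 with siNC, 388, 384 and 353 with siB4GALT5, and 405, 409 and 491 with siB3GNT3. GAPDH, the dehydrogenase often used as a reference gene, was 2811, 2854 and 2943 FPKM with siNC, 2431, 2345 and 2176 with siB4GALT5, and 2303, 2314 and 2916 with siB3GNT3. In both, every siB4GALT5 library and siB3GNT3 replicates 1 and 2 were below the controls. TPI1 fell by 0.37 (SE 0.05, adjusted p = 0.000538) and GAPDH by 0.31 (SE 0.05, adjusted p = 0.00102) with siB4GALT5, and by 0.25 and 0.31 with siB3GNT3 without replicate 3 (adjusted p = 0.000428 and 5.21e-05; as labelled 0.273 and 0.253). Capan-1 TPI1 was 354, 329 and 326 FPKM with siNC and 250.1, 258 and 339 with siB3GNT3, and GAPDH 2698, 2526 and 2521 against 2318, 2316 and 2753. Replicate 3 was inside the control range for TPI1 and above the controls for GAPDH, and neither was called (-0.26, adjusted p = 0.102, and -0.07, adjusted p = 0.505). Without it both genes lay wholly below the controls, TPI1 fell (-0.40, adjusted p = 0.000378), and GAPDH changed by -0.16 (adjusted p = 0.0589). Rescaling to a common sum or by median ratios ended neither siB4GALT5 call, and GAPDH has 62 named pseudogenes in GENCODE with which it can share reads.

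PGK1 (chromosome X, 77910739 to 78129296, plus strand), the phosphoglycerate kinase, makes the first ATP of the pathway. In AsPC-1 it was 84.5, 84.3 and 87.9 FPKM with siNC, 63.6, 62.2 and 67.1 with siB4GALT5, and 54.2, 51.9 and 87.6 with siB3GNT3. In Capan-1 the values were 217, 199 and 194 FPKM with siNC and 106, 124 and 160.5 with siB3GNT3. Knockdown and control ranges were apart in both lines, apart from AsPC-1 siB3GNT3 replicate 3. PGK1 fell by 0.41 with siB4GALT5 (SE 0.05, adjusted p = 0.000285), by 0.66 with siB3GNT3 in Capan-1 (SE 0.14, adjusted p = 0.00869) and by 0.68 with siB3GNT3 in AsPC-1 without replicate 3 (SE 0.04, adjusted p = 1.85e-06; as labelled -0.44, adjusted p = 0.251).

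PGAM1, the mutase after PGK1, was the enzyme with no call for siB4GALT5 (-0.06, SE 0.05, adjusted p = 0.408). Levels in AsPC-1 were 130.4, 135 and 138 FPKM with siNC, 135, 131 and 121 with siB4GALT5, and 97.8, 105 and 138 with siB3GNT3. In Capan-1 it was 221, 218 and 222 FPKM with siNC and 109, 125 and 232 with siB3GNT3. The siB4GALT5 libraries overlapped the controls, and replicate 3 of siB3GNT3 was at or above the control level in both lines. PGAM1 fell by 0.40 with siB3GNT3 in AsPC-1 without replicate 3 (SE 0.05, adjusted p = 7.17e-05; as labelled -0.26, adjusted p = 0.254) and in Capan-1 only without replicate 3 (-0.91, adjusted p = 7.28e-06; as labelled -0.58, SE 0.24, adjusted p = 0.0922).

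Enolase makes phosphoenolpyruvate. ENO1, the main form, was 798, 799 and 834 FPKM in AsPC-1 with siNC, 629, 605 and 600.5 with siB4GALT5, and 662, 669 and 800.0 with siB3GNT3. Its Capan-1 values were 1072, 1045 and 1039 FPKM with siNC and 806, 869 and 972 with siB3GNT3. Ranges were apart for siB4GALT5 and in Capan-1. ENO1 fell by 0.40 with siB4GALT5 (SE 0.04, adjusted p = 0.000109), by 0.28 with siB3GNT3 in AsPC-1 without replicate 3 (SE 0.04, adjusted p = 0.000127; as labelled -0.19, adjusted p = 0.251) and by 0.26 in Capan-1 (SE 0.07, adjusted p = 0.0298). The Capan-1 call ended without any siNC library, without siB3GNT3 replicate 1 or 2 and with a replicate block (adjusted p up to 0.126).

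ENO2 was 3.56, 3.31 and 4.18 FPKM in AsPC-1 with siNC, 1.67, 2.34 and 1.69 with siB4GALT5, and 3.18, 3.57 and 3.69 with siB3GNT3. Capan-1 libraries gave 32.5, 29.9 and 28.5 FPKM with siNC and 20.9, 23.4 and 43.2 with siB3GNT3. In AsPC-1 it was low in all 3 siB4GALT5 libraries and overlapped the controls with siB3GNT3, and in Capan-1 siB3GNT3 replicates 1 and 2 were below the controls and replicate 3 above them. ENO2 fell with siB4GALT5 (-0.69, SE 0.11, adjusted p = 0.00121), and its change with siB3GNT3 was -0.06 (SE 0.10, adjusted p = 0.684; -0.09, adjusted p = 0.401, without replicate 3) in AsPC-1 and -0.12 (SE 0.23, adjusted p = 0.706) in Capan-1, where it fell without replicate 3 (-0.43, adjusted p = 0.00107). The knockdowns differed from each other in ENO2 (-0.63, siB4GALT5 minus siB3GNT3, SE 0.12, adjusted p = 0.0378; -0.60, adjusted p = 0.0156, without siB3GNT3 replicate 3).

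PKM (chromosome 15, 72199029 to 72231822, minus strand) encodes pyruvate kinase, the last step to pyruvate. Its AsPC-1 values were 1841, 1948 and 1790.3 FPKM with siNC, 1201, 1208 and 979 with siB4GALT5, and 1103, 1089 and 1816 with siB3GNT3. The Capan-1 levels were 1621, 1622 and 1679 FPKM with siNC and 1294, 1428 and 1430.5 with siB3GNT3. Every knockdown library but AsPC-1 siB3GNT3 replicate 3 was below the controls, and the siB4GALT5 mean was 0.607 of the siNC mean. PKM fell by 0.73 with siB4GALT5 (SE 0.08, adjusted p = 0.000182), by 0.76 with siB3GNT3 in AsPC-1 without replicate 3 (SE 0.04, adjusted p = 7.02e-07; as labelled -0.52, adjusted p = 0.251) and by 0.25 in Capan-1 (SE 0.06, adjusted p = 0.0165). The Capan-1 call ended without any siNC library, with adjusted p up to 0.121.

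LDHA (chromosome 11, 18394388 to 18408425, plus strand), the subunit that favours lactate formation, was 829, 902 and 843 FPKM in AsPC-1 with siNC, 556, 572 and 466 with siB4GALT5, and 587, 538 and 856 with siB3GNT3. In Capan-1 the values were 690.5, 681 and 706 FPKM with siNC and 396, 497 and 529 with siB3GNT3. The ranges did not overlap in either line once AsPC-1 siB3GNT3 replicate 3 was set aside. LDHA fell by 0.70 with siB4GALT5 (SE 0.08, adjusted p = 0.000176), by 0.61 with siB3GNT3 in AsPC-1 without replicate 3 (SE 0.05, adjusted p = 9.01e-06; as labelled -0.41, adjusted p = 0.251) and by 0.56 in Capan-1 (SE 0.10, adjusted p = 0.00553). LDHB in Capan-1 was 235, 219.7 and 219 FPKM with siNC and 179, 209 and 199 with siB3GNT3, with all 3 below the controls. It changed by -0.20 (SE 0.07, adjusted p = 0.0651), and fell without siB3GNT3 replicate 3 (-0.21, adjusted p = 0.0338).

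Summed over the 17 enzymes, FPKM was 7209, 7456 and 7388 in AsPC-1 siNC, 5608, 5501 and 4969 with siB4GALT5, and 5420.5, 5394 and 7355 with siB3GNT3. In Capan-1 the sum was 7448, 7166 and 7218 with siNC and 5718, 6087 and 6965 with siB3GNT3. The knockdown sums lay below the control sums in each group, with AsPC-1 siB3GNT3 replicate 3 as the exception. GAPDH alone was 34.9% to 43.8% of the sum. The sum was 1.65% to 1.70% of all FPKM in AsPC-1 siNC and 1.22% to 1.36% with siB4GALT5. Mitochondrially encoded mRNAs moved with it in AsPC-1, from 23.8% to 24.8% of FPKM in siNC to 18.1% to 19.5% with siB4GALT5 and 20.1%, 19.7% and 24.3% with siB3GNT3, and in Capan-1 they spanned 13.6% to 14.8% in all 6 libraries. Their part in the result was not tested.

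SLC16A3, the transporter that exports lactate, was 60.3, 58.6 and 61.6 FPKM in AsPC-1 with siNC, 51.3, 47.4 and 47.2 with siB4GALT5, and 46.6, 50.2 and 62.6 with siB3GNT3. In Capan-1 it was 99.1, 89.6 and 86.4 FPKM with siNC and 92.8, 81.9 and 114 with siB3GNT3. It was low with both siRNAs in AsPC-1, except in replicate 3 of siB3GNT3, and overlapped in Capan-1. SLC16A3 fell by 0.30 with siB4GALT5 (SE 0.05, adjusted p = 0.0018) and by 0.31 with siB3GNT3 in AsPC-1 without replicate 3 (SE 0.05, adjusted p = 0.000463; as labelled -0.19, adjusted p = 0.299). In Capan-1 the change was 0.06 (SE 0.12, adjusted p = 0.72).

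PFKFB3 (chromosome 10, 6144934 to 6254644, plus strand) was the regulator whose response differed most between the lines. In AsPC-1 it was 9.78, 11.6 and 10.3 FPKM with siNC, 8.18, 9.97 and 11.9 with siB4GALT5, and 9.21, 10.1 and 11.6 with siB3GNT3. Its Capan-1 values were 176, 185 and 179 FPKM with siNC and 78.4, 92.8 and 109 with siB3GNT3. All AsPC-1 groups overlapped, whereas every Capan-1 siB3GNT3 library was well below every control. PFKFB3 fell in Capan-1 (-0.95, SE 0.11, adjusted p = 0.00077) and was not called in AsPC-1 (-0.08, adjusted p = 0.592, with siB4GALT5; -0.03, adjusted p = 0.835, with siB3GNT3, or -0.12, adjusted p = 0.228, without replicate 3). The difference between lines in the siB3GNT3 response passed the test (0.92, AsPC-1 minus Capan-1, SE 0.16, adjusted p = 0.0071).

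PFKFB4, a related enzyme of the same family, was low everywhere. Its values were 1.21, 1.30 and 1.402 FPKM in AsPC-1 with siNC, 0.983, 0.777 and 0.714 with siB4GALT5, and 0.305, 0.459 and 0.901 with siB3GNT3. Capan-1 libraries gave 3.01, 2.94 and 2.60 FPKM with siNC and 0.698, 0.959 and 4.01 with siB3GNT3. All 6 AsPC-1 knockdown libraries were below the controls, and the Capan-1 replicate 3 was above them. PFKFB4 fell by 0.34 with siB4GALT5 (SE 0.09, adjusted p = 0.012; -0.61 with a pseudocount of 0.1) and by 0.74 with siB3GNT3 in AsPC-1 without replicate 3 (SE 0.10, adjusted p = 0.000168; as labelled -0.58, adjusted p = 0.251). In Capan-1 it was not called (-0.59, SE 0.35, adjusted p = 0.224) except without replicate 3 (-1.08, adjusted p = 3.5e-05).

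PDK1, the kinase that shuts pyruvate dehydrogenase, was 1.57, 1.38 and 1.68 FPKM in AsPC-1 with siNC, 1.77, 1.59 and 2.11 with siB4GALT5, and 1.45, 1.52 and 1.59 with siB3GNT3. The groups overlapped, with no call (0.15, adjusted p = 0.22, with siB4GALT5; -0.01, adjusted p = 0.911, with siB3GNT3, or -0.03, adjusted p = 0.75, without replicate 3). The Capan-1 levels were 1.82, 1.95 and 1.83 FPKM with siNC and 1.33, 1.119 and 1.57 with siB3GNT3, with all 3 below the controls. It fell there by 0.30 (SE 0.09, adjusted p = 0.044). The call ended without any siNC library and without siB3GNT3 replicate 1 or 2. It also ended with a replicate block and with rescaling to a common sum (adjusted p up to 0.135).

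**Figure D3:**
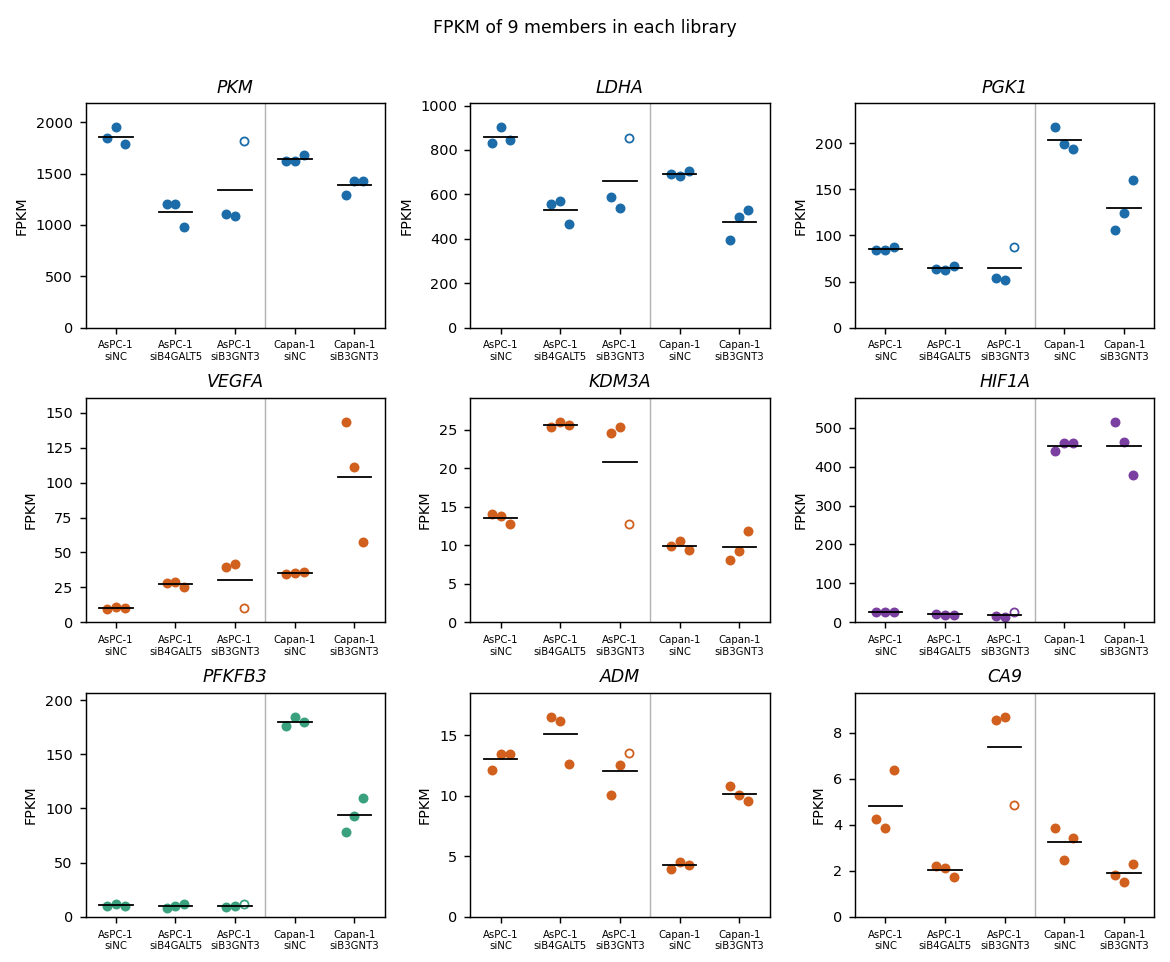
FPKM of 9 genes in each library (points) with the group mean (bar), AsPC-1 to the left and Capan-1 to the right of the grey line; the open circle is the library labelled AsPC-1 siB3GNT3 replicate 3. PKM, LDHA and PGK1 are lower and VEGFA higher with each siRNA apart from the open circle, KDM3A is higher in AsPC-1 alone, and PFKFB3 and ADM move in Capan-1.

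The other hypoxia targets begin with VEGFA (chromosome 6, 43770184 to 43786487, plus strand), which rose in both lines. Its AsPC-1 values were 9.56, 11.02 and 10.5 FPKM with siNC, 27.8, 28.6 and 25.4 with siB4GALT5, and 39.7, 41.8 and 10.1 with siB3GNT3. In Capan-1 the values were 34.4, 35.0 and 36.2 FPKM with siNC and 143, 111 and 57.8 with siB3GNT3. Every knockdown library except AsPC-1 siB3GNT3 replicate 3 was above every control, and the Capan-1 knockdown libraries spread widely. VEGFA rose by 1.32 with siB4GALT5 (SE 0.07, adjusted p = 6.69e-06), by 1.44 with siB3GNT3 in Capan-1 (SE 0.27, adjusted p = 0.00637) and by 1.88 with siB3GNT3 in AsPC-1 without replicate 3 (SE 0.07, adjusted p = 6.95e-08; as labelled 1.24, SE 0.50, adjusted p = 0.251). VEGFA thus moved against PGK1, PKM and LDHA in each of these comparisons.

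ADM (chromosome 11, 10304680 to 10307397, plus strand) also codes for a secreted vascular peptide, but its response was in Capan-1. In AsPC-1 it was 12.2, 13.4 and 13.5 FPKM with siNC, 16.5, 16.2 and 12.6 with siB4GALT5, and 10.04, 12.6 and 13.5 with siB3GNT3. In Capan-1 it was 3.94, 4.54 and 4.30 FPKM with siNC and 10.8, 10.1 and 9.55 with siB3GNT3. The AsPC-1 groups overlapped, while the Capan-1 groups were far apart and the siB3GNT3 libraries close together. ADM rose in Capan-1 (1.08, SE 0.08, adjusted p = 0.000125) and was not called in AsPC-1 with siB4GALT5 (0.19, SE 0.10, adjusted p = 0.139) or siB3GNT3 (-0.11, SE 0.12, adjusted p = 0.52; -0.19, adjusted p = 0.0848, without replicate 3). The difference between lines passed the test (-1.19, AsPC-1 minus Capan-1, SE 0.14, adjusted p = 0.000876).

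CA9 (chromosome 9, 35673856 to 35681159, plus strand), the cell-surface carbonic anhydrase often used as a hypoxia marker, went opposite ways with the AsPC-1 siRNAs. Its AsPC-1 values were 4.27, 3.84 and 6.40 FPKM with siNC, 2.22, 2.13 and 1.75 with siB4GALT5, and 8.56, 8.70 and 4.87 with siB3GNT3. Its Capan-1 values were 3.84, 2.46 and 3.43 FPKM with siNC and 1.81, 1.53 and 2.32 with siB3GNT3. It was below the controls in all siB4GALT5 and all Capan-1 siB3GNT3 libraries, and above them in AsPC-1 siB3GNT3 replicates 1 and 2. CA9 fell by 0.92 with siB4GALT5 (SE 0.15, adjusted p = 0.00134) and rose by 0.75 with siB3GNT3 in AsPC-1 without replicate 3 (SE 0.15, adjusted p = 0.00213; as labelled 0.51, adjusted p = 0.251). The siRNAs differed from each other in CA9 by -1.43 (siB4GALT5 minus siB3GNT3 as labelled, SE 0.21, adjusted p = 0.0176) and by -1.67 without replicate 3 (adjusted p = 0.000167). CA9 fell by 0.55 in Capan-1 (SE 0.15, adjusted p = 0.0226), a call that ended without siNC replicate 1 or 3 or siB3GNT3 replicate 1 or 2 (adjusted p up to 0.0936). The difference between lines was 1.06 as labelled (SE 0.31, adjusted p = 0.0564) and 1.30 without AsPC-1 siB3GNT3 replicate 3 (adjusted p = 0.00206). In GENCODE 643 of the 1670 exonic bases of CA9 overlap exons of ARHGEF39 on the opposite strand. The strandedness of the libraries is not given, so reads of ARHGEF39 may enter the CA9 values, which was not tested.

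NDRG1 (chromosome 8, 133237171 to 133302022, minus strand) was 43.2, 42.1 and 42.4 FPKM in AsPC-1 with siNC, 49.2, 53.0 and 57.4 with siB4GALT5, and 37.3, 37.7 and 43.5 with siB3GNT3. Capan-1 libraries gave 5.97, 5.53 and 5.31 FPKM with siNC and 8.06, 6.59 and 9.63 with siB3GNT3. It was above the controls with siB4GALT5 and in Capan-1, and below them in AsPC-1 siB3GNT3 replicates 1 and 2. NDRG1 rose by 0.31 with siB4GALT5 (SE 0.06, adjusted p = 0.00366) and by 0.45 in Capan-1 (SE 0.12, adjusted p = 0.0232), and fell by 0.18 with siB3GNT3 in AsPC-1 without replicate 3 (SE 0.04, adjusted p = 0.00523; as labelled -0.11, adjusted p = 0.365). The Capan-1 call ended without any siNC library or without siB3GNT3 replicate 1 (adjusted p up to 0.0861). The difference between lines passed the test as labelled (-0.56, AsPC-1 minus Capan-1, SE 0.16, adjusted p = 0.0478), and the call ended in 12 of 21 alternatives, among them each siNC library left out in turn and siB3GNT3 replicate 1 of either line or replicate 2 of AsPC-1 left out (adjusted p up to 0.116).

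KDM3A (chromosome 2, 86440647 to 86492716, plus strand), a histone H3 lysine 9 demethylase, was 14.1, 13.8 and 12.8 FPKM in AsPC-1 with siNC, 25.3, 26.0 and 25.6 with siB4GALT5, and 24.6, 25.3 and 12.7 with siB3GNT3. The Capan-1 levels were 9.89, 10.5 and 9.40 FPKM with siNC and 8.10, 9.26 and 11.9 with siB3GNT3. The siB4GALT5 libraries and siB3GNT3 replicates 1 and 2 lay close together far above the controls, and the Capan-1 groups overlapped. KDM3A rose by 0.87 with siB4GALT5 (SE 0.06, adjusted p = 1.37e-05) and by 0.83 with siB3GNT3 in AsPC-1 without replicate 3 (SE 0.06, adjusted p = 2.87e-06; as labelled 0.53, adjusted p = 0.251). In Capan-1 the change was -0.04 (SE 0.12, adjusted p = 0.821), and the difference between lines was 0.57 as labelled (adjusted p = 0.256) and 0.87 without AsPC-1 siB3GNT3 replicate 3 (adjusted p = 0.0015).

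BNIP3L, the mitophagy receptor NIX, was 7.05, 8.26 and 7.49 FPKM in AsPC-1 with siNC, 12.4, 14.1 and 12.2 with siB4GALT5, and 9.04, 8.93 and 7.21 with siB3GNT3. In Capan-1 the values were 20.8, 20.1 and 18.9 FPKM with siNC and 16.4, 18.1 and 18.8 with siB3GNT3. BNIP3L was highest in AsPC-1 with siB4GALT5 and only slightly above the controls in siB3GNT3 replicates 1 and 2. It rose by 0.69 with siB4GALT5 (SE 0.08, adjusted p = 0.000211) and by 0.22 with siB3GNT3 without replicate 3 (SE 0.07, adjusted p = 0.0251; as labelled 0.12, adjusted p = 0.446), and siB4GALT5 exceeded siB3GNT3 by 0.57 as labelled (SE 0.12, adjusted p = 0.0437). BNIP3 in Capan-1 was 72.5, 64.0 and 63.4 FPKM with siNC and 45.4, 46.7 and 70.1 with siB3GNT3, where replicate 3 was inside the control range. BNIP3 and BNIP3L were not called there (-0.32, adjusted p = 0.143, and -0.16, adjusted p = 0.135), and without siB3GNT3 replicate 3 both fell (-0.52, adjusted p = 0.000234, and -0.20, adjusted p = 0.0353).

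P4HA1 was 15.2, 15.9 and 16.6 FPKM in AsPC-1 with siNC, 19.1, 21.5 and 20.4 with siB4GALT5, and 17.5, 18.0 and 15.8 with siB3GNT3. P4HA1 in Capan-1 was 70.4, 67.9 and 68.0 FPKM with siNC and 62.7, 67.9 and 67.9 with siB3GNT3, with no call (-0.06, adjusted p = 0.511). P4HA1 was above the controls in all siB4GALT5 libraries and, by less, in siB3GNT3 replicates 1 and 2. It rose by 0.34 with siB4GALT5 (SE 0.07, adjusted p = 0.00285) and by 0.15 with siB3GNT3 without replicate 3 (SE 0.06, adjusted p = 0.0394; as labelled 0.10, adjusted p = 0.412).

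ANKRD37, a small ankyrin-repeat protein, was 0.641, 0.274 and 1.10 FPKM in AsPC-1 with siNC, 1.14, 1.30 and 1.11 with siB4GALT5, and 1.08, 1.34 and 0.222 with siB3GNT3. All 3 siB4GALT5 libraries were above the controls, with no call (0.41, SE 0.17, adjusted p = 0.0641), and siB3GNT3 gave 0.15 (adjusted p = 0.729; 0.43, adjusted p = 0.0651, without replicate 3). Its Capan-1 values were 1.14, 1.59 and 1.25 FPKM with siNC and 0.833, 0.718 and 0.961 with siB3GNT3. It fell there by 0.34 (SE 0.10, adjusted p = 0.0372), or by 0.60 with a pseudocount of 0.1. EGLN3 rose in Capan-1 from 8.38, 8.83 and 8.59 FPKM to 9.57, 10.8 and 13.5 FPKM, with replicate 3 the highest (0.35, SE 0.11, adjusted p = 0.0463; 0.22 without it). Both calls ended without siB3GNT3 replicate 2. That of ANKRD37 also ended without replicate 1 and with a replicate block (adjusted p up to 0.111). That of EGLN3 also ended without any siNC library and with median-ratio scaling (adjusted p up to 0.135). In GENCODE 909 of the 2580 exonic bases of ANKRD37 overlap exons of UFSP2 on the opposite strand. Reads of UFSP2 may thus enter the low ANKRD37 values, which was not tested.

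HIF1A mRNA was 25.8, 27.2 and 26.0 FPKM in AsPC-1 with siNC, 20.9, 20.0 and 19.9 with siB4GALT5, and 15.9, 14.7 and 25.9 with siB3GNT3. Capan-1 libraries gave 439.7, 460.4 and 461 FPKM with siNC and 515, 462 and 379 with siB3GNT3. All siB4GALT5 libraries and siB3GNT3 replicates 1 and 2 were below the controls, and in Capan-1 the knockdown libraries lay on both sides of them. HIF1A fell by 0.36 with siB4GALT5 (SE 0.05, adjusted p = 0.00073) and by 0.75 with siB3GNT3 in AsPC-1 without replicate 3 (SE 0.05, adjusted p = 4.34e-06; as labelled -0.50, SE 0.20, adjusted p = 0.251). The difference between lines was -0.49 as labelled (adjusted p = 0.227) and -0.73 without that library (adjusted p = 0.00166).

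**Figure D4:**
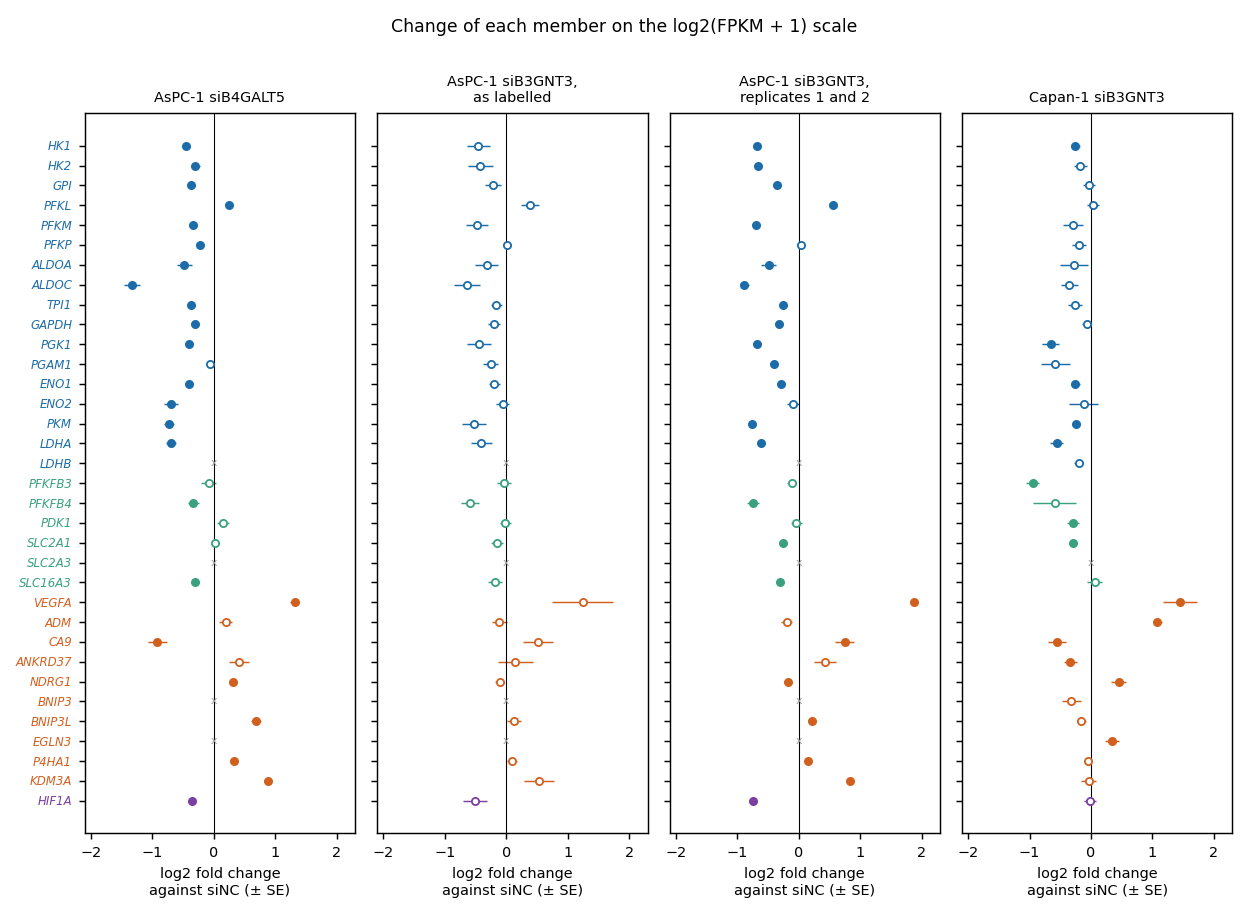
Log2 fold change against siNC (± SE, on log2(FPKM + 1)) of each gene in 4 comparisons; filled points were called at adjusted p under 0.05, open points were not, and crosses at 0 were not tested. Enzymes (blue) lie mostly left and other hypoxia targets (orange) mostly right of 0 in AsPC-1, and no point is filled where AsPC-1 siB3GNT3 is taken as labelled.

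The knockdowns of AsPC-1 were also compared with each other, which leaves the shared controls out. As labelled, 3 of 29 genes tested were called (BNIP3L, ENO2 and CA9), where 5.02% of 10631 genes were called, 2.36% higher and 2.66% lower with siB4GALT5. Without siB3GNT3 replicate 3 it was 13 of 29, 8 higher and 5 lower with siB4GALT5, where 25.6% of 10540 genes were called, 13.5% higher and 12.1% lower. HK2, PFKM, PGK1, PGAM1, SLC2A1, NDRG1, BNIP3L and HIF1A were then higher with siB4GALT5, and PFKL, PFKP, ENO2, VEGFA and CA9 lower. The VEGFA difference went from 0.07 (SE 0.48, adjusted p = 0.945) as labelled to -0.56 (SE 0.08, adjusted p = 0.00308). PKM, LDHA, GAPDH and KDM3A differed by 0.04, -0.09, 0.00 and 0.04 without that library, with no call. The 3 calls made as labelled each ended without any siB4GALT5 library and without siB3GNT3 replicate 1 or 2, with adjusted p up to 0.196.

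Between the lines, the siB3GNT3 response differed in 3 of 33 genes as labelled (PFKFB3, ADM and NDRG1), where 8.42% of 12134 genes were called, 4.68% positive and 3.74% negative (AsPC-1 minus Capan-1). With AsPC-1 siB3GNT3 replicate 3 left out it differed in 15, where 35.6% of 12113 genes were called, 20.4% positive and 15.2% negative. With Capan-1 siB3GNT3 replicate 3 left out instead it differed in 8, where 16.1% of 12036 were called, 8.72% positive and 7.39% negative. With both left out, a choice made after seeing the data, 22 genes differed, where 47.7% of 12014 were called, 27.1% positive and 20.6% negative. PKM then fell more in AsPC-1 (-0.49, AsPC-1 minus Capan-1, adjusted p = 0.000247), and the change of LDHA (0.03, adjusted p = 0.839), PGK1 (0.14, adjusted p = 0.245) and VEGFA (0.07, adjusted p = 0.702) was not called as different.

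Genes around the pathway were counted from lists of their own. Of 21 further hypoxia targets tested with siB4GALT5, 11 rose and 5 fell (median 0.31, against 0.06 over all genes, of which 34.1% rose and 22.3% fell). DDIT4, an inhibitor of mTORC1 that stress also induces, ANGPTL4, a lipase inhibitor, and STC1, a secreted glycoprotein, rose by 1.54, 1.45 and 1.402 (adjusted p = 1.61e-06, 1.16e-05 and 1.7e-05). With siB3GNT3 in AsPC-1 9 of 20 rose and 7 fell without replicate 3 (median 0.06, against 0.07, where 37% and 25.7% of all genes did), led by DDIT4, ERO1A, an oxidase of the endoplasmic reticulum, and ANGPTL4 (1.42, 1.06 and 0.73). In Capan-1 5 of 28 rose and 5 fell (median -0.02, against 0.02), near the 18.7% and 14.2% of all genes, with HIGD1A, a mitochondrial protein, lower (-1.05, adjusted p = 0.000191), and ERO1A and STC2, a relative of STC1, rising by 0.45 and 0.96 (adjusted p = 0.00191 and 0.00553). DDIT4 was 51.4, 49.8 and 52.4 FPKM in AsPC-1 with siNC, 145, 159.6 and 148 with siB4GALT5, 136, 140.2 and 51.1 with siB3GNT3, and in Capan-1 58.6, 52.1 and 48.7 with siNC and 310.0, 237 and 89.5 with siB3GNT3. Every knockdown library except AsPC-1 siB3GNT3 replicate 3 was above its controls. With the libraries as labelled no gene of these lists was called for siB3GNT3 in AsPC-1.

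The shares of all genes just given for each comparison are the background of the counts that follow. Of 14 genes of oxygen sensing tested with siB4GALT5, 7 rose and 3 fell (median 0.15), the latter near the 22.3% of all genes, with SIAH2, a ubiquitin ligase for the EGLN hydroxylases, the co-activator CREBBP and the HIF partner ARNT rising by 1.27, 0.69 and 0.52 (adjusted p = 5.6e-06, 0.000117 and 0.00018). With siB3GNT3 in AsPC-1 without replicate 3, 8 rose and 3 fell (median 0.35), led by EPAS1, the HIF2 alpha subunit, VHL and CITED2, an inhibitor of HIF (0.96, 0.69 and 1.00). In Capan-1 7 of 14 rose and none fell (median 0.24), led by CITED2, VHL and CREBBP (0.66, 0.50 and 0.70; adjusted p = 0.00491, 0.00693 and 0.0123). EPAS1 was 6.16, 5.71 and 5.93 FPKM in AsPC-1 with siNC, 4.90, 5.46 and 7.89 with siB4GALT5, and 12.1, 13.0 and 5.36 with siB3GNT3. It was raised in siB3GNT3 replicates 1 and 2, where HIF1A was at its lowest, and not called with siB4GALT5 (0.01, SE 0.14, adjusted p = 0.966).

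Of 5 genes of glucose-sensing transcription tested, 4 rose with siB4GALT5 (median 0.64), 4 with siB3GNT3 in AsPC-1 without replicate 3 (median 0.35) and 3 in Capan-1 (median 0.63), and none fell. TXNIP, which restrains glucose uptake, was 73.4, 74.6 and 71.5 FPKM in AsPC-1 with siNC, 249, 273 and 266 with siB4GALT5, and 145, 140.4 and 75.5 with siB3GNT3. The Capan-1 levels were 42.1, 40.4 and 37.3 FPKM with siNC and 77.6, 63.2 and 49.2 with siB3GNT3. All knockdown libraries were above the controls, AsPC-1 siB3GNT3 replicate 3 by under 1 FPKM. TXNIP rose by 1.83 with siB4GALT5 (SE 0.05, adjusted p = 9.41e-07), by 0.95 with siB3GNT3 in AsPC-1 without replicate 3 (SE 0.04, adjusted p = 1.91e-07; as labelled 0.65, adjusted p = 0.251) and by 0.63 in Capan-1 (SE 0.15, adjusted p = 0.0133). ARRDC4, a TXNIP relative with the same regulation, rose in AsPC-1 by 1.91 with siB4GALT5 and by 1.84 with siB3GNT3 without replicate 3 (adjusted p = 9.25e-06 and 9.6e-08; as labelled 1.19, adjusted p = 0.251), and MLXIP, a sensor of glucose metabolites, rose by 0.64 with siB4GALT5 and 0.49 in Capan-1 (adjusted p = 0.000217 and 0.00308).

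Of 7 pentose phosphate genes 4 fell and 1 rose with siB4GALT5 (median -0.19), with PGD and the transaldolase TALDO1 falling by 0.61 and 0.53 and the lactonase PGLS rising by 0.56 (adjusted p = 2.26e-05, 0.00557 and 0.003). With siB3GNT3 without replicate 3 6 fell and 1 rose (median -0.54), among them TALDO1 and PGD, which fell by 0.72 and 0.54. In Capan-1 TALDO1 fell by 0.38 and PGLS rose by 0.31 among 7 (median -0.07; adjusted p = 0.00919 and 0.0349). Of 11 genes of pyruvate entry into mitochondria 6 fell and 2 rose with siB4GALT5 (median -0.16), with the carrier subunit MPC1 falling by 0.60 and the phosphatase PDP1 rising by 0.46. With siB3GNT3 in AsPC-1 without replicate 3 7 of 11 fell and 1 rose (median -0.27), and DLAT, a subunit of pyruvate dehydrogenase, fell by 0.49. In Capan-1 2 of 12 fell and 2 rose (median -0.10), near the 14.2% and 18.7% of all genes. DLD, the shared dehydrogenase subunit, fell there by 0.75 (adjusted p = 0.000366). Of 8 other glycolytic isoforms and regulators tested, 3 rose and 1 fell with siB4GALT5 (median 0.07), 3 rose and 2 fell with siB3GNT3 in AsPC-1 without replicate 3 (median 0.03), and 2 rose and 1 fell in Capan-1 (median 0.07). For so few genes these counts were near the shares of all genes that rose and fell, 34.1% and 22.3%, 37% and 25.7%, and 18.7% and 14.2%. PFKFB2, a relative of PFKFB3, rose by 0.55 with siB4GALT5 and by 0.56 with siB3GNT3 in AsPC-1 without replicate 3 (adjusted p = 0.00759 and 0.000168; as labelled 0.41, adjusted p = 0.251).

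Set beside the promoter windows above, ACGTG was present in 13 of the 18 genes that fell with siB4GALT5, in 1 of the 3 that rose and have a promoter here (P4HA1), and in 3 of the 6 not called. With siB3GNT3 in AsPC-1 without replicate 3, ACGTG was present in 10 of the 17 that fell and have a promoter. It was present in 2 of the 4 that rose and have one, and in 5 of the 6 not called. With siB3GNT3 in Capan-1 it was present in 6 of the 10 genes that fell. It was present in 0 of the 2 that rose and have a promoter, and in 12 of the 18 not called that have one. These counts are per gene over its start sites, and no such share over all genes was computed. LDHA, PGK1 and ALDOC carry the motif and fell with siB4GALT5, P4HA1 carries it and rose, and CA9 carries it and moved both ways. The part of the motif in the changes was not tested.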

How the data were processed

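Total RNA of 15 libraries was sequenced. The authors deposited a table of FPKM values per gene and library, and the submitters' processing notes name Bowtie2, RSEM 1.3.1, DESeq2 1.4.5 and GRCh38 without their roles. The gene annotation and the strandedness are not given in the sources used here. Whether read depth differed was checked from the steps between low FPKM values, only for ratios near equal depth.

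Log2(FPKM + 1) was computed from the deposited values, and genes with at least 1 FPKM in at least 3 libraries of a comparison were fitted in limma 3.58.1 (R 4.3.3) with trended, moderated spread and Benjamini-Hochberg adjustment over all genes tested. Each fit used only the groups it compares. The interaction took AsPC-1 minus Capan-1 for siB3GNT3 against siNC. The fit was tested on simulated data. Values of every library are given for genes called in at least 1 comparison with siNC or whose direction differed (LDHB, BNIP3 and EGLN3, not tested in the AsPC-1 comparisons, have ranges there), and for the other lists up to 3 genes with the smallest p in a comparison. A gene that this rule would name is not reported here. HKDC1, DDIT4, EPAS1 and TXNIP are shown by library, a choice made after their values were seen. The 34 genes and all lists were chosen with earlier results of these data known. Alternatives were other pseudocounts (0.1), filters (none, 5 FPKM), scalings, library sets and a replicate block. Positions come from GENCODE 29 (GRCh38) and promoters from RefSeq (GRCh38.p14).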

Additional observations from a re-analysis of the deposited data

Results flagged for a closer look

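The response to siB3GNT3 differed between AsPC-1 and Capan-1 by a test of the difference itself in 3 of the 33 genes tested (limma interaction term, AsPC-1 minus Capan-1, libraries as labelled). Of all 12134 genes tested 8.42% were called, so the count was near that share. Without AsPC-1 siB3GNT3 replicate 3, whose target was not reduced, 15 of the 33 were called, as were 35.6% of 12113 genes. The difference was 0.92 (SE 0.16, adjusted p = 0.0071) for PFKFB3, the phosphofructokinase activator, which fell in all 3 Capan-1 siB3GNT3 libraries and overlapped the controls in AsPC-1. It was -1.19 (SE 0.14, adjusted p = 0.000876) for ADM, adrenomedullin, which was raised in all 3 Capan-1 siB3GNT3 libraries and overlapped the controls in AsPC-1. Both were called under each of the 21 alternatives, with values from 0.80 to 1.03 for PFKFB3 and from -1.35 to -1.08 for ADM. The difference of NDRG1 was -0.56 (SE 0.16, adjusted p = 0.0478), and 12 of the 21 alternatives ended its call.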

How the results depend on the processing

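FPKM without counts gives no counting error, and low genes such as ANKRD37 and PFKFB4 depend on the pseudocount. Over all alternatives, 2501 single-gene values kept their direction and side of the threshold, whatever the size of the move. A call was gained by 126 and lost by 102. Direction changed with no call in either fit for 68, and 4 reversed, changing direction with a call in either fit. Reversed were HK1 between the AsPC-1 knockdowns (0.22, adjusted p = 0.0291, in a fit of all AsPC-1 libraries but the doubted siB3GNT3 replicate 3, against -0.01), VEGFA there (-0.56 without that library and -0.56 in the same wider fit, against 0.07 as labelled and 0.41 without siB3GNT3 replicate 2) and GAPDH between the siNC groups (0.012 with rescaling to a common sum). Leaving out each library in turn gave 22 to 25 of the genes studied and 4805 to 6667 of all genes for siB4GALT5 in AsPC-1. It gave 0 to 24 and 0 to 6533 for siB3GNT3 in AsPC-1, 6 to 25 and 2069 to 5715 in Capan-1, 0 to 13 and 23 to 2693 between the knockdowns, 2 to 15 and 501 to 4316 for the interaction, and 27 to 32 and 8368 to 9288 between the siNC groups. In limma 5 to 8 of the 29 to 33 genes tested were at an unadjusted p under 0.05 where the knockdowns gave 0. So were 1587 to 3340 of all genes in these fits, of 10491 to 21244 tested. The fit of all AsPC-1 libraries gave 16 and 4239 for siB4GALT5 and 5 and 1716 between the knockdowns. The fit of all but the doubted library gave 22 and 5697 for siB3GNT3 and 17 and 3789 between the knockdowns. With no filter the counts were 6 and 2645 in Capan-1, and 0 and 179 between the knockdowns, where a filter of 5 FPKM gave 1 and 433. With both siB3GNT3 replicates 3 left out, chosen after seeing the data, the interaction gave 22 and 5730. The cause of these moves was not tested beyond the samples and genes each alternative leaves out. The titles give groups the same replicate numbers, but libraries with the same title number correlated at only -0.0367 to 0.128 in their deviations. The numbers were therefore not taken as pairs. The library names carry partly other numbers, and a pairing by those was not tested, nor is it by the replicate block. A replicate block gave 24 and 5789 for siB4GALT5, 0 and 0 for siB3GNT3 in AsPC-1, 11 and 3311 in Capan-1, 1 and 71 between the knockdowns, and 2 and 497 for the interaction.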
